A study of Mus musculus with 2 samples.

Results

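The 45 genes described here encode ligands, receptors, latency proteins, SMADs and direct targets of the TGF-β and BMP pathway. They were chosen by symbol from their known roles, and all 45 were found among the 38320 gene entries of RNA-seq from adherent hepatic stromal cells. The cells came from livers of adult male C57/Bl6 mice after 5 weeks of carbon tetrachloride (CCl4), a hepatotoxin that causes fibrosis. Suspended liver cells were left on culture dishes for 2 hours, the cells that attached were kept, and samples were pooled into 1 library per genotype. Control mice carried floxed Foxf1 alleles only (Foxf1fl/fl, labelled wild type). Knockout mice carried the same floxed alleles and a tamoxifen-inducible CreER driven by the αSMA promoter (labelled αSMACreER;Foxf1 fl/fl and called αSMACreER;Foxf1-/- or knockout here). Both genotypes received CCl4, and tamoxifen was given from the second week of injury to activate the Cre. The promoter limits the Cre to cells that make αSMA. The level of Foxf1 itself was not analysed here, and the deletion was therefore not checked in these libraries.

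TGF-β, activin and BMP ligands bind a type II receptor, which phosphorylates a type I receptor. The type I receptor phosphorylates SMAD2 and SMAD3 (TGF-β and activin) or SMAD1 and SMAD5 (BMP), which enter the nucleus with SMAD4. In injured liver, TGF-β is a major driver of the change from stellate cell to collagen-producing myofibroblast, while BMP signals from endothelial cells control hepcidin in hepatocytes.

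The promoters of 5 of the 8 members past the 1.5-fold threshold used below are printed first, so that they can be read beside the expression values. Each is the 250 bases before the RefSeq start on GRCm38.p6, in the direction of transcription, with every match to GGCGCC in capitals. GGCGCC is a GC-rich element that BMP SMADs can bind. The windows lie at chr13:16011601-16011850 (Inhba, + strand), chr1:59764029-59764278 (Bmpr2, + strand), chr4:47352972-47353221 (Tgfbr1, + strand), chr11:106920716-106920965 (Smurf2, - strand) and chr4:136143572-136143821 (Id3, + strand).
Inhba: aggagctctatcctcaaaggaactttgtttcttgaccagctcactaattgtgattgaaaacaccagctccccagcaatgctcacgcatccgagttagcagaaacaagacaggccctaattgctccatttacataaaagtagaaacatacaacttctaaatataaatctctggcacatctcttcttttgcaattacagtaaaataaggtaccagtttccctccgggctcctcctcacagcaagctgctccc
Bmpr2: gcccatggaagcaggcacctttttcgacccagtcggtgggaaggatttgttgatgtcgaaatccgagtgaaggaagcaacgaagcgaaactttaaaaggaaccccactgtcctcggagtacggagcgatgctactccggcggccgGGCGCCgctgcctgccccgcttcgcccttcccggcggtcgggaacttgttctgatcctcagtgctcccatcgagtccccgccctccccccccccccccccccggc
Tgfbr1: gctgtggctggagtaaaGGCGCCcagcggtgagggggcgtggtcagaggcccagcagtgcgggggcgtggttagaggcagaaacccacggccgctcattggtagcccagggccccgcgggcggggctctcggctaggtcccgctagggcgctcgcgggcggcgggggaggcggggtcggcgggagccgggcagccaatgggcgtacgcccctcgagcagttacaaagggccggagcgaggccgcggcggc
Smurf2: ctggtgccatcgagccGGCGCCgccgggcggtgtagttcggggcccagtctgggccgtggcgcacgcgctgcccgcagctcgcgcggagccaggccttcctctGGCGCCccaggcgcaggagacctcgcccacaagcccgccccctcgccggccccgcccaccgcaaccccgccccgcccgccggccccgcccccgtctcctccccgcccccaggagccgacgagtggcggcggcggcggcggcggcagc
Id3: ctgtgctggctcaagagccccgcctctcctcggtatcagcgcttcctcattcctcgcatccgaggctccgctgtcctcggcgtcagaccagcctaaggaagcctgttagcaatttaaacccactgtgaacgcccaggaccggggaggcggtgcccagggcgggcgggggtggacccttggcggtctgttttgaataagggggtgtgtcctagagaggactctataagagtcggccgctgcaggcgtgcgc
The Bmpr2 match began 105 bases before the start, the Tgfbr1 match 233 bases before it, and the Smurf2 matches 234 and 147 bases before it. The Inhba and Id3 windows held none. The RefSeq start of Id3 lies 325 bases inside the gene as the deposited table places it, so its window falls within that gene. The windows differed in base composition, from 43.2% G and C in Inhba to 82.0% in Smurf2. Promoters were in the RefSeq table for 34 of the 45 members, and 9 of them (26.5%) held GGCGCC, which reads the same on both strands, beside 10.8% of 27025 genes. Those genes were not matched to the members for base composition, on which matches to an element of G and C alone depend. Among the 5 higher members with a promoter in the table, 3 held GGCGCC, all of them printed above. The higher member of these 5 that is not printed held none. The 9 were Bmpr1a, Bmpr2, Id2, Ltbp4, Ski, Smad5, Smurf2, Tgfbi and Tgfbr1. The palindromic SMAD-binding element GTCTAGAC was in 0 of 34 members and in 0.200% of all genes. The forkhead core GTAAACA, searched on both strands, was in 0 of 34 members and in 3.54% of all genes. A match describes these letters only and is not a bound site.

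Values are FPKM (fragments per kilobase of transcript, relative to library size), which are per length and so allow levels to be set side by side between genes. With 1 pooled library per genotype no difference could be checked against replicates, and p-values are not given. A difference is the log2(FPKM + 0.1) of knockout cells less that of Foxf1fl/fl cells, after the knockout values were divided by 1.02, the median ratio over 12011 genes at or above 1 FPKM in both. This scale understates the differences of genes near 0. Where a gene is given with a pair of FPKM values, Foxf1fl/fl comes first and αSMACreER;Foxf1-/- next, both as deposited. Ratios between genotypes are of scaled FPKM, with no pseudocount. Genes with a mean scaled FPKM of at least 1 were counted, and 12839 genes passed this filter. From the spacing of low values, the Foxf1fl/fl library was estimated at about 9760000 mapped reads and the αSMACreER;Foxf1-/- library at 11340000. The low values came within 0.1 of whole reads in just 48.5% and 52.4% of cases, so the read numbers and the 95% counting intervals made from them are rough. The intervals cover counting error, and neither differences between mice nor the choice of scaling.

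By their markers the adherent cells were a mixture. The 12 macrophage markers summed to 13357 FPKM in Foxf1fl/fl cells and 11042 in knockout cells, whereas the 16 stellate cell and myofibroblast markers summed to 345 and 493. Of the first 3 of these 16, Des had 1.70 and 3.29 FPKM, Pdgfrb 1.03 and 1.43, and Lrat 0.0778 and 0.111. The highest of the 16 were Dcn, with 127 and 186 FPKM, Col3a1, with 115 and 164, and Col1a1, with 70.2 and 103. Acta2, which encodes αSMA, had 7.77 and 5.65 FPKM. The level of each member is thus that of mixed adherent liver cells, and fewer cells of a type and less RNA per cell cannot be told apart.

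Of the 45 members, 39 passed the filter and 6 were too low (Bmp4, Bmp5, Gdf2, Inhbc, Inhbe and Acvr2b). Among the 39, 6 were at least 1.5-fold higher in αSMACreER;Foxf1-/- cells (15.4%), as were 12.9% of all genes. They were Inhba, Bmpr2, Tgfbr1, Smurf2, Tgfb2 and Skil. Another 2 were at least 1.5-fold lower (5.13%), Id3 and Gdf15, as were 13.2% of all genes. The share of higher members was near that of all genes. The other 31 members lay within 1.5-fold, and Smurf1 was the nearest to the threshold, with a difference of 0.54. In all, 21 members were above 0 and 18 below, with a median of 0.053, and the median over all genes was 0.0057. When both libraries were instead set to the same FPKM total, the median over all genes became 0.21. Under this scaling 7 members were higher (Smurf1 was added) and 0 were lower, beside 22.2% and 8.73% of all genes.

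**Figure D1:**
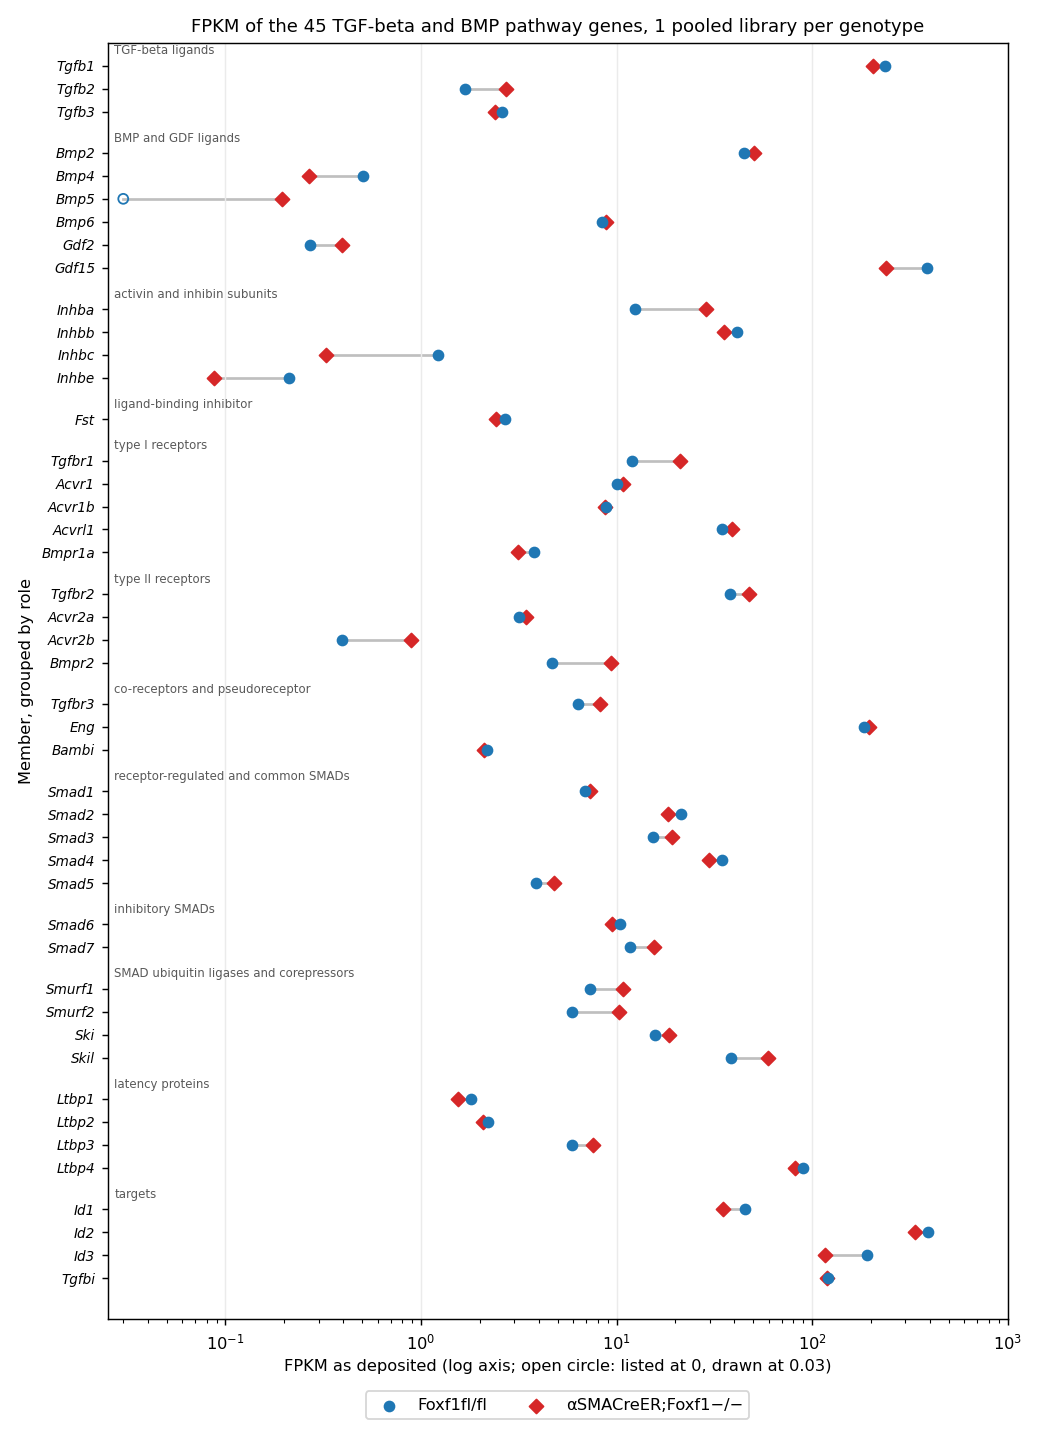
FPKM as deposited (log axis) of each of the 45 members in Foxf1fl/fl (blue circles) and αSMACreER;Foxf1-/- (red diamonds), 1 pooled library each, joined by a grey line. Inhba lies at 12.4 and 28.6 FPKM, most other pairs lie closer together, and Bmp5 is listed at 0 in Foxf1fl/fl (open circle drawn at 0.03).

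Among the TGF-β ligands, Tgfb1, the main isoform in immune and many other cells, made up 98.2% of the summed ligand FPKM in Foxf1fl/fl cells and 97.5% in knockout cells. Its level was 237 FPKM in Foxf1fl/fl cells and 204 in knockout cells, a difference of -0.24 (counting interval -0.30 to -0.19). With both libraries set to the same FPKM total, its difference was -0.037, outside that interval. Tgfb2, a minor ligand here, had 1.67 and 2.73 FPKM, a ratio of 1.60 and a difference of 0.65 (0.28 to 1.09). Tgfb2 lies at chr1:186623186-186705992 (mm10), and about 80 and 152 reads stood behind its values if they fell on its longest transcript. With its median transcript length the interval widened to -0.49 to 1.95 and held 0. In 124 bases its longest transcript overlaps Gm29491 on the other strand, and the counting of strand was not stated. Tgfb3 had 2.60 and 2.40 FPKM.

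Gdf15, a distant family member that signals through its own receptor and is known as a stress-induced factor, led the BMP and GDF ligands. It had 387 FPKM in Foxf1fl/fl cells and 240 in knockout cells, a difference of -0.72 (-0.78 to -0.65), at chr8:70629393-70632456. Gdf15 took 87.8% of the FPKM of its group in Foxf1fl/fl cells and 79.9% in knockout cells. Bmp2, a BMP that liver endothelial cells make, had 44.7 and 50.5 FPKM, a difference of 0.15 (0.050 to 0.25). Bmp6, the main regulator of hepcidin, had 8.42 and 8.88 FPKM. Low levels were found for Gdf2 (BMP9), with 0.269 and 0.394 FPKM, and Bmp4, with 0.502 and 0.267 FPKM. Bmp5 was listed at 0 in Foxf1fl/fl cells and had 0.194 FPKM in knockout cells, about 8 reads. Of the longest Bmp5 transcript 49.1% is covered by Gm26903 on the other strand.

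Activins are dimers of inhibin beta subunits. Inhba, which encodes the subunit of activin A, had 12.4 FPKM in Foxf1fl/fl cells and 28.6 in knockout cells, the highest ratio among the 39 members (2.27), at chr13:16011851-16027211. Its difference was 1.18 (1.06 to 1.31), from about 748 and 2011 reads. Inhbb, the subunit of activin B, had 41.2 and 35.5 FPKM, a difference of -0.24 (-0.34 to -0.14). Inhba thus went from 22.5% to 44.4% of the subunits' summed FPKM, and its ratio to Inhbb from 0.301 in Foxf1fl/fl to 0.806 in knockout cells. Fst encodes follistatin, which binds activins and blocks them, and had 2.68 and 2.43 FPKM. The FPKM ratio of Inhba to Fst was 4.62 in Foxf1fl/fl cells and 11.8 in knockout cells.

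The other activin subunits, Inhbc and Inhbe, are known as products of hepatocytes. Inhbc had 1.22 FPKM in Foxf1fl/fl cells and 0.328 in knockout cells, about 20 and 6 reads. Inhbe had 0.211 and 0.0874 FPKM, and its counting interval held 0. Inhbc, with a counting interval of -3.58 to -0.61, was lower in the same library as the hepatocyte markers. Of these markers 12 of 12 were at least 1.5-fold lower in αSMACreER;Foxf1-/- cells, beside 13.2% of all genes, with a median difference of -1.44. The 12 hepatocyte markers summed to 3475 FPKM in Foxf1fl/fl cells and 1318 in knockout cells, and none was at 0. Their part in the level of Inhbc was not tested.

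Of the type I receptors, Tgfbr1, which carries the TGF-β signal to SMAD2 and SMAD3, was the member past the threshold. It had 12.0 FPKM in Foxf1fl/fl cells and 21.2 in knockout cells, a difference of 0.79 (0.66 to 0.93), at chr4:47353222-47414931. Acvrl1 (ALK1), the type I receptor of endothelial cells for BMP9, was the most abundant, with 34.5 and 38.9 FPKM. Acvr1 (ALK2), a type I receptor for BMPs, had 10.0 and 10.8 FPKM and Acvr1b, a type I receptor for activin, 8.85 and 8.68. Bmpr1a, a type I receptor for BMP2 and BMP4, had 3.77 and 3.15 FPKM, a difference of -0.28 (-0.57 to 0.00016).

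Of the type II receptors, Bmpr2, which binds BMPs, had 4.66 FPKM in Foxf1fl/fl cells and 9.36 in knockout cells. Its difference was 0.97 (0.84 to 1.13), at chr1:59764279-59870549, and about 577 and 1349 reads stood behind the values. Tgfbr2, the receptor that binds TGF-β first, was the most abundant, with 37.9 and 47.7 FPKM and a difference of 0.30 (0.24 to 0.37). The ratio of Tgfbr1 to Tgfbr2 was 0.316 in Foxf1fl/fl cells and 0.445 in knockout cells, so the receptors of a TGF-β complex differed unequally. The activin type II receptor Acvr2a had 3.17 and 3.45 FPKM. Its relative Acvr2b was below the filter, with 0.394 and 0.894 FPKM, about 11 and 30 reads. The ratio of Bmpr2 to the sum of Acvr2a and Acvr2b was 1.31 and 2.16.

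The co-receptor endoglin (Eng), which endothelial cells carry at high level, had 184 FPKM in Foxf1fl/fl cells and 196 in knockout cells. It was the most abundant of the co-receptors. Betaglycan (Tgfbr3), which presents TGF-β2 to its receptors, had 6.34 and 8.21 FPKM, a difference of 0.34 (0.15 to 0.54). Bambi, a pseudoreceptor that blocks signalling, had 2.18 and 2.09 FPKM. Of the endothelial markers, Pecam1 stood at 93.3 and 96.6 FPKM, Cdh5 at 98.4 and 113, and Kdr at 40.0 and 47.3, and over the whole list 9 of 12 were above 0 and 3 below.

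None of the 5 receptor-regulated and common SMADs and none of the inhibitory SMADs passed the threshold. Smad4, the common partner, was the most abundant, with 34.5 FPKM in Foxf1fl/fl cells and 29.9 in knockout cells. Smad2 had 21.4 and 18.4 FPKM, a difference of -0.25 (-0.35 to -0.15), while Smad3 had 15.3 and 19.3 FPKM, a difference of 0.31 (0.17 to 0.44). The SMADs of TGF-β and activin therefore lay on either side of 0. Smad1 had 6.92 and 7.31 FPKM, and Smad5 3.86 and 4.81. The inhibitory Smad7, a feedback target of TGF-β that blocks its receptor, had 11.8 and 15.5 FPKM, a difference of 0.37 (0.20 to 0.54). Smad6, which blocks BMP signals, had 10.4 and 9.51 FPKM.

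The SMAD ubiquitin ligases and corepressors had 4 of 4 members above 0, with a median difference of 0.57, although Ski fell below 0 after the length correction described below. Smurf2, a ligase that marks SMADs and receptors for degradation, had 5.95 FPKM in Foxf1fl/fl cells and 10.3 in knockout cells. Its difference was 0.75 (0.56 to 0.97), at chr11:106820066-106920715, and 58 bases of its longest transcript overlap Gm27322 on the same strand. Smurf1 had 7.30 and 10.8 FPKM, just inside 1.5-fold. Skil (SnoN), a corepressor that binds SMADs and is itself induced by TGF-β, had 38.6 and 59.7 FPKM, a difference of 0.60 (0.53 to 0.68), just past 1.5-fold, at chr3:31095058-31122577. Ski had 15.7 and 18.5 FPKM.

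Of the latency proteins, LTBP1 and LTBP3 bind the inactive TGF-β complex and tether it to the matrix. All 4 listed latency protein genes lay within 1.5-fold, and Ltbp4 led them with 89.5 FPKM in Foxf1fl/fl cells and 81.8 in knockout cells. Ltbp3 had 5.88 and 7.54 FPKM, Ltbp2 2.21 and 2.08, and Ltbp1 1.80 and 1.54.

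The 4 targets were all below 0, with a median difference of -0.32, except that Tgfbi turned above 0 under scaling to an equal FPKM sum or to the upper quartile. Id3, a BMP target that blocks helix-loop-helix factors, had 190 FPKM in Foxf1fl/fl cells and 116 in knockout cells. Its difference was -0.74 (-0.84 to -0.64), at chr4:136143497-136145755, from about 2002 and 1417 reads. Id1 had 45.3 and 35.2 FPKM, a difference of -0.39 (-0.60 to -0.19). Id2, the most abundant member, had 393 and 338 FPKM, a difference of -0.24 (-0.29 to -0.19). The ratio of Id3 to Id1 was 4.19 in Foxf1fl/fl cells and 3.30 in knockout cells. Tgfbi, a matrix protein induced by TGF-β, had 121 and 120 FPKM.

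Over the 39 members, the counting interval lay above 0 for 17, below 0 for 9 and held 0 for 13. The same count was not made over all genes, so it cannot be read as a trait of the members. The intervals also rest on the scaling used. With an equal FPKM sum, 29 members had differences above 0 and 10 below, against 21 and 18 in the main scaling. The median over all genes was then 0.21. For all 8 members past the threshold the counting interval excluded 0, and for 7 of them when the median transcript length was used. The same FPKM values put these 8 past the threshold and gave their intervals, so this is not a separate check. In the plot of differences by role these intervals are drawn beside the values corrected for transcript length.

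**Figure D2:**
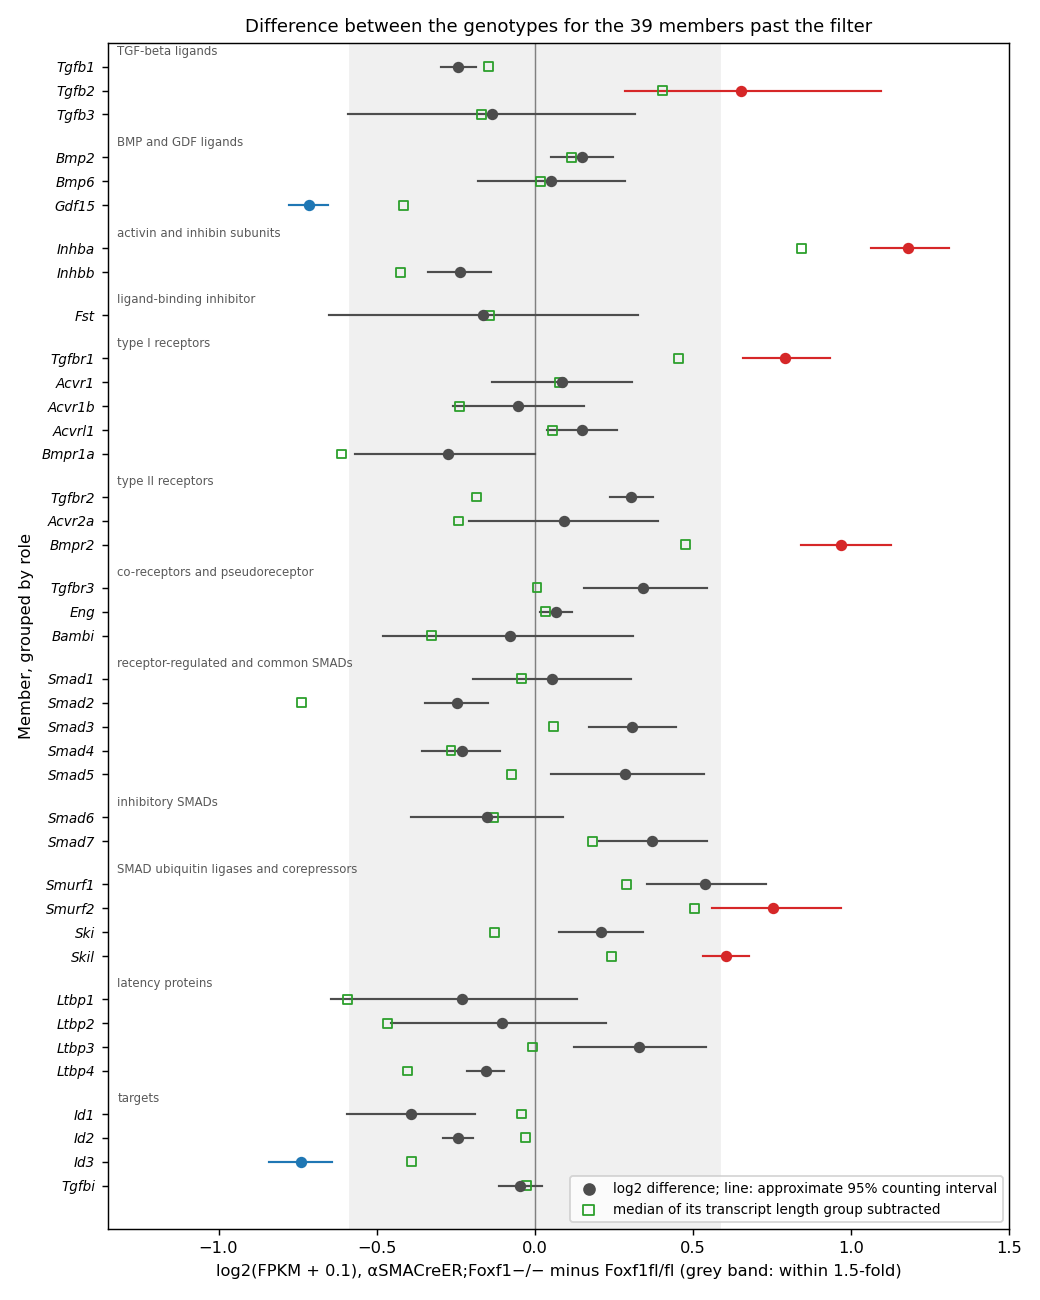
Difference in log2(FPKM + 0.1), αSMACreER;Foxf1-/- minus Foxf1fl/fl, of the 39 members past the filter, with approximate 95% counting intervals (lines) that hold no variation between mice. Red and blue points lie outside the grey band of 1.5-fold, and green squares are the same values after the median of the gene's transcript length group was subtracted, where only Inhba remains on the right of the band and Smad2, Bmpr1a and Ltbp1 lie left of it.

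Differences between the libraries followed transcript length across all genes, with a Spearman correlation of 0.45 over 12670 genes, which share the same pair of libraries and are not replicates. In the longest of 20 length groups (7777 bases and more) 38.8% of genes passed 1.5-fold upward and 3.63% downward. The members are long genes, and 31 of the 39 were longer than the median gene, whose longest transcript has 3068 bases. All 6 higher members had longest transcripts of 5116 to 12899 bases and fell in the 4 longest length groups. Gene ends matched GENCODE M21, the source of these lengths, for 30 of the 45 members, and did not for Inhba, Bmpr2 and Tgfb2. Those groups held 20 of the 39 members, so 6 of 20 were higher, beside 27.7% of all genes of these groups. Both lower members were short, with 1278 bases in Id3 and 1545 in Gdf15. They were 2 of 3 members in the 4 shortest groups, where 31.6% of all genes were at least 1.5-fold lower.

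When the median of each length group was subtracted, Inhba was the single member still at least 1.5-fold higher, with a corrected difference of 0.84, beside 9.94% of all genes. All 8 members past the threshold kept their direction, but 7 of them came within 1.5-fold. Bmpr2 was then at 0.48, Tgfbr1 at 0.45, Smurf2 at 0.51, Tgfb2 at 0.40, Skil at 0.24, Id3 at -0.39 and Gdf15 at -0.42. On this scale 3 other members were at least 1.5-fold lower, Smad2 (-0.74), Bmpr1a (-0.61) and Ltbp1 (-0.59), beside 11.1% of all genes. The median of the 39 members was -0.042 after the correction. The targets came closer to 0, with a median of -0.036, and Ski was the corepressor that turned from above to below 0. Tgfbr2, Acvr2a, Smad1, Smad5 and Ltbp3 also turned from above to below 0. This left Bmpr2 as the type II receptor above 0, 4 of the 5 receptor-regulated and common SMADs below 0, and all 4 latency proteins below 0, with a median of -0.44. What lies behind the length trend was not tested.

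**Figure D3:**
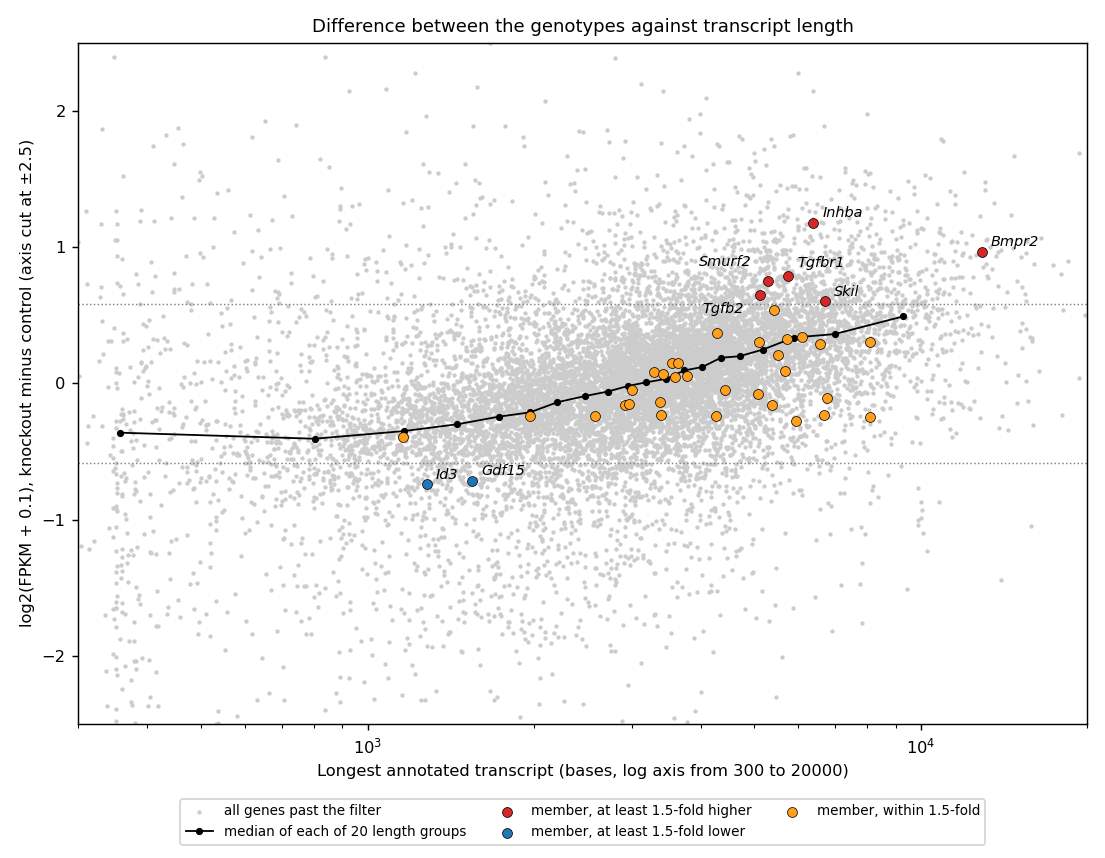
Difference in log2(FPKM + 0.1), αSMACreER;Foxf1-/- minus Foxf1fl/fl, against the longest annotated transcript (bases, log axis) for all genes past the filter (grey) and the members (coloured). The black line joins the medians of 20 length groups and runs from -0.36 in the shortest to 0.49 in the longest, the 6 higher members lie at 5116 to 12899 bases, and the 2 lower ones lie at 1278 and 1545 bases.

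A further 96 genes of the pathway were listed, and 69 of them passed the filter. Of the 69, 10 were at least 1.5-fold higher (14.5%) and 6 lower (8.70%), beside 12.9% and 13.2% of all genes, with a median difference of 0.13. Scaled to an equal FPKM sum, 24 were higher and 4 lower, beside 22.2% and 8.73% of all genes. Scaled to the upper quartile, 18 were higher and 6 lower, beside 16.4% and 10.95% of all genes. Among 23 signal transducers and cofactors, 7 were higher (30.4%) and 1 was lower (4.35%), beside 12.9% and 13.2% of all genes. The median of their longest transcripts was 5773 bases, and 27.7% of all genes in the 4 longest length groups were higher. After the length correction 2 of the 23 were higher and 1 was lower, beside 9.94% and 11.1% of all genes. The 7 higher genes included the SMAD coactivators Ep300, with 4.37 FPKM in Foxf1fl/fl cells and 9.01 in knockout cells, and Crebbp, with 4.08 and 9.03 FPKM. Sp1, a transcription factor that acts with SMADs, had 4.20 and 9.40 FPKM, and Zfyve16, an endosomal SMAD-binding protein, 4.14 and 7.46. These 4 genes are long, with longest transcripts of 6150 to 10820 bases, and Sp1 and Crebbp remained past 1.5-fold after the length correction, at 0.76 and 0.61. Ppp1r15a, a phosphatase subunit that SMAD7 recruits to the TGF-β receptor, was lower, with 932 and 587 FPKM.

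Of the extracellular modulators, Fstl1, a secreted glycoprotein related to follistatin, had 18.1 FPKM in Foxf1fl/fl cells and 30.5 in knockout cells, a difference of 0.73 (0.59 to 0.87). Of the 20 target genes outside the members, 1 was higher and 1 lower. Fn1, which encodes the matrix protein fibronectin, had 127 and 319 FPKM, a difference of 1.30 (1.27 to 1.33), and 0.81 after the length correction. Hamp, which encodes the iron hormone hepcidin and is induced by BMP signals in hepatocytes, had 230 and 110 FPKM, a difference of -1.08 (-1.31 to -0.86). Of the 8 receptors outside the members 4 were lower (Amhr2, Rgma, Hjv and Tfr2) and 0 higher, beside 13.2% and 12.9% of all genes, and the mean of each of the 4 was under 5 FPKM. The counting interval of Hjv held 0. After the length correction 3 of the 4 remained past 1.5-fold, without Hjv, so 3 of the 8 were lower, beside 11.1% of all genes. Tfr2, a hepatocyte iron sensor, had 6.69 and 2.75 FPKM, and Hjv, a BMP co-receptor of hepatocytes, 1.29 and 0.738. Hamp and Tfr2 were lower beside the hepatocyte markers Alb (2292 and 912 FPKM), Ttr (322 and 86.8) and Apoa1 (261 and 84.2), whose part in these results was not tested. None of the 3 ligands that passed the filter was past the threshold.

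The other cell type markers give the setting in which the members were measured. The stellate cell and myofibroblast markers had a median difference of 0.51 over the 10 of 16 that passed. Of these 10, 8 were above 0 and 2 below (Acta2 and Tagln), where 50.4% of all genes were above 0. At least 1.5-fold higher was 1 of the 10 (Des), beside 12.9% of all genes. Des rested on about 47 and 106 reads, and with its median transcript length its counting interval (-0.20 to 2.06) held 0. The macrophage markers had a median of -0.34, with 10 of 12 below 0 and 2 above (Adgre1 and Cd68). The first 3 listed were Clec4f at 1117 and 753 FPKM, Adgre1 at 162 and 165, and Cd68 at 646 and 679. The endothelial markers had a median of 0.21 and summed to 1407 and 1359 FPKM. The 5 cholangiocyte markers that passed had a median of 0.27, with 3 above 0 and 2 below. Of these Krt19 had 39.7 and 29.5 FPKM, Krt7 4.91 and 6.91, and Epcam 8.38 and 5.65. After the length correction the stellate cell and myofibroblast median was 0.25 and the macrophage median -0.12. The endothelial median was then 0.020 and the cholangiocyte median 0.34. The part of any of these cell types in the members' levels was not tested.

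**Figure D4:**
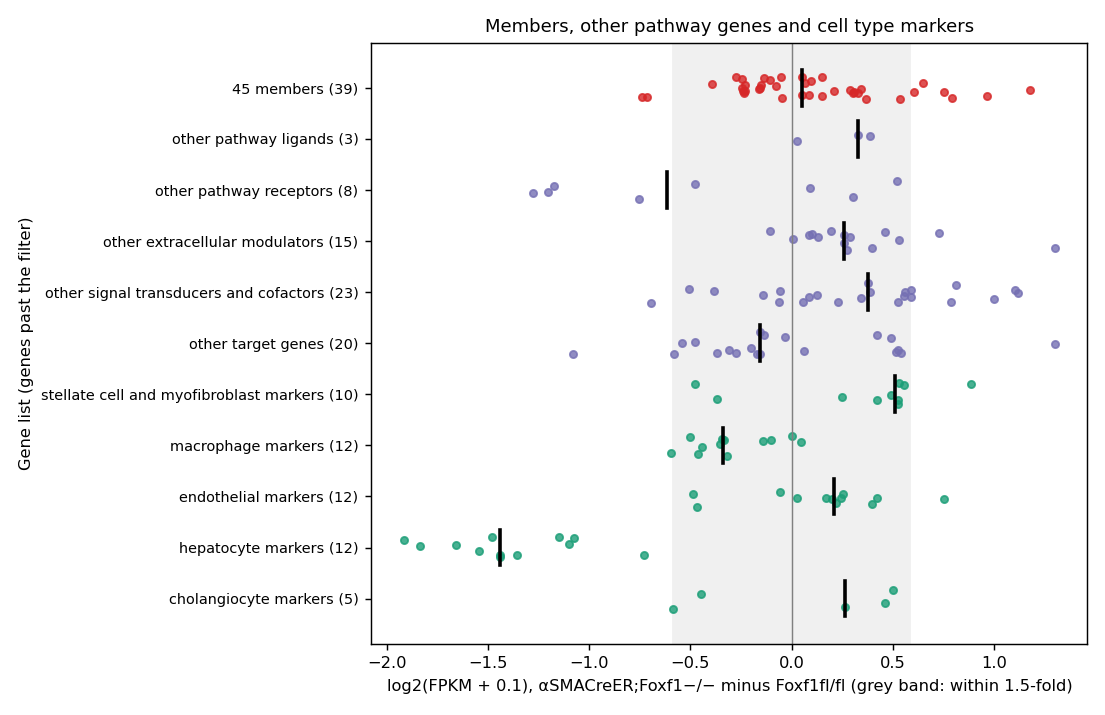
Difference in log2(FPKM + 0.1), αSMACreER;Foxf1-/- minus Foxf1fl/fl, of each gene past the filter (points, spread vertically for view) in the members (red), the other pathway genes (purple) and the cell type markers (green), with the median of each list as a black bar and the number of genes in parentheses. The 12 hepatocyte markers all lie left of the grey 1.5-fold band, and the members centre near 0.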

How the data were processed

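Adherent liver cells of both genotypes were sequenced with a TruSeq RNA library and 75-base single-end reads. The authors aligned the reads with TopHat to mm10 and deposited Cufflinks FPKM per Ensembl gene, with a status for each estimate. Versions are not given in the sources used here, and a separate DESeq quantification of the authors was not used. Symbols (36490 of 38320 entries) and transcript lengths came from GENCODE M21. Where several entries shared a symbol, the one with the highest mean FPKM was kept (38288 genes), and 3 entries without an OK status were left out. Scaling, filter (mean of at least 1), pseudocount (0.1) and 1.5-fold threshold were applied to the whole table. No count model was used on FPKM, and 1 library per genotype allows no test. Read numbers assumed fragments of 200 bases, and exact binomial 95% intervals were used. Alternatives changed the pseudocount, scaling, filter, threshold, repeated symbols and length correction. The members, lists and rules were chosen with earlier results of these data known. All 45 members are accounted for. Other pathway genes were named where they passed 1.5-fold at a mean of at least 5 FPKM, and the first 3 markers of each list were named. Tfr2, Hjv, Amhr2, Rgma, Acta2, Dcn, Col3a1 and Col1a1 were named after their values were seen. The procedure was tested on simulated data, with planted changes larger than 1.5-fold in genes of at least 5 FPKM and counting noise only. Recovery of changes near 1.5-fold or near the filter, and differences between mice, were therefore not tested. Calculations used Python 3.11.15, pandas 2.3.3, numpy 2.4.6, matplotlib 3.10.9 and scipy 1.17.1.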

Additional observations from a re-analysis of the deposited data

How the results depend on the processing

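Scaling to an equal FPKM sum gave 0 lower members and a members' median of 0.25, and for the other pathway genes 24 higher and a median of 0.33. It shifts every gene upward, and the median of all genes moved to 0.21, with 22.2% of all genes higher and 8.73% lower. This scaling put the differences of 23 members outside their counting intervals and left 16 within them. Tgfb1, Inhbb, Smad2 and Id2 stayed below 0, at -0.037, -0.033, -0.044 and -0.039. Upper-quartile scaling gave 18 higher other pathway genes, beside 16.4% of all genes. Without a filter 5 members and 11 other pathway genes were lower, where 16.7% of all genes were. A minimum mean of 5 FPKM gave 6 higher and 2 lower other pathway genes, from fewer genes tested, beside 7.99% and 11.2% of all genes. At 2-fold 1 member was higher (Inhba) and 0 were lower, and 5 other pathway genes were higher. At this threshold 4.49% of all genes were higher and 6.22% lower. After the length correction 1 member and 5 other pathway genes were higher, beside 9.94% of all genes. With a pseudocount of 1 Tgfb2 was no longer past 1.5-fold, which left 5 higher members, beside 8.68% of all genes. For these counts the cause was not tested beyond the changes that the settings make themselves. All other counts stayed within 1.5 times, and none of the 8 members past the threshold changed direction under any alternative. A requirement, chosen after seeing the data, that the counting interval also exclude 0 left 6 higher and 2 lower members. It uses the same values as the threshold and is not a separate check. No paired analysis was possible because 1 library stood for each genotype, and for the same reason no library could be left out. The low members rest on few reads. The counting interval of Inhbe held 0, and that of Bmp5 held 0 with the median transcript length but not with the longest transcript.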
